A study of Capitella teleta with 10 samples.

Results

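A set of 200 transcript models of the annelid worm *Capitella teleta* was low at the gastrula and back by stage 7. It was drawn from 41221 models and described across 5 developmental stages. The set was chosen by its values at 3 of these stages. A model was eligible if both 64-cell libraries and both stage 7 libraries held a normalized read count of at least 50, which 14154 models (34.3%) did. Its score was the log2 ratio of the lowest of these 4 libraries to the higher gastrula library, with 1 added to each. The 200 largest scores (1.41% of the eligible models) made the set. Because the choice used the 64-cell, gastrula and stage 7 values, the dip itself is described here and not tested. The libraries of stage 4tt and stage 5 took no part in the choice.

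Bulk mRNA was sequenced from whole animals in 2 libraries at each of the 64-cell stage, the gastrula, stage 4tt, stage 5 and stage 7, all untreated and of no named genotype. The labels class stage 4tt as an embryo, whereas the study calls it a larva, and the culture text attached to these samples names another annelid. Nothing in the labels says which broods gave the 2 libraries of a stage, so a p value measures only the spread between these libraries. Normalized read counts summed to between 32883200 (stage 7, replicate 2) and 55846793 (64-cell, replicate 1) per library.

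*C. teleta* broods its embryos in a tube and hatches a swimming larva that lives on yolk. In animal embryos the earliest transcripts come from the mother and are loaded into the egg. Many of these are degraded while the embryo starts transcription of its own, and a gene can be used once from the maternal store and again later from the embryo's genome. Gastrulation moves the future gut and mesoderm inside the embryo, and the segmented trunk, nervous system and gut are built after it. None of the 200 identifiers, nor any other identifier in the data, matched a table of 31977 *C. teleta* genes (0 matches), so no gene name or function is given. For the same reason the stage labels could not be checked against marker genes, and no sequence is shown.

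Members were lowest as a group at the gastrula and then climbed back over 3 sampled stages. Their median normalized read count was 306 and 281 in the 64-cell libraries, and 8.46 and 8.04 in the gastrula libraries. It was 67.6 and 64.4 at stage 4tt, 150.0 and 162 at stage 5, and 403 and 372 at stage 7. Over the same libraries the median of all eligible models stayed between 728 and 794. In a bulk sample, fewer cells that use a transcript and less of it per cell cannot be told apart. As a share of all normalized reads, the members together took 3481 and 3877 ppm at the 64-cell stage, and 171 and 173 ppm at the gastrula. That share was 1165 and 1582 at stage 4tt, 2835 and 3515 at stage 5, and 7245 and 5476 at stage 7, so the summed share was highest at stage 7. A single member, CTELG00000020185.1, held 40282 normalized reads in 1 stage 7 library and 16869.7 in the other.

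The scores ran from 3.08 to 8.65 with a median of 3.75. On the linear scale, a median member was thus at least 13.5-fold higher in its lowest 64-cell or stage 7 library than in its higher gastrula library, after adding 1. Of the 200 members, 71 scored above 4, 26 above 5 and 12 above 6. The eligible models as a whole had a median score of -0.980, and 8.84% of them scored above 1. The edge of the set is not a gap. CTELG00000030007.1, the last member, and CTELG00000027201.1, the first model outside, both scored 3.08, and their neighbours in rank, CTELG00000007622.1 and CTELG00000000069.1, scored 3.09 and 3.07. CTELG00000027201.1 held 435 and 369.9 normalized reads at the 64-cell stage, 19.6 and 42.9 at the gastrula and 956 and 834 at stage 7, a course no different in kind from that of members. The mirror score, the lower gastrula library over the highest 64-cell or stage 7 library, reached 3.08 in 186 of the 16732 models (1.11%) with both gastrula libraries at 50 or more.

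The gastrula was the lowest stage by mean for 183 members, stage 4tt for 11 and stage 5 for 6. The highest stage was the 64-cell stage for 78 members, stage 4tt for 4, stage 5 for 28 and stage 7 for 90. In 14 members both gastrula libraries were listed at 0, and these were all 14 such models among the eligible ones. A listed 0 in these files is an estimate from pseudo-alignment and need not mean that no transcript was present. In all, 48 members were listed at 0 in at least 1 gastrula library.

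The rule, rather than the 200 members, was also described by choosing models on the libraries of 1 replicate number and reading their score in the others. The 200 models chosen on the replicate 1 libraries had a median score of 5.33 there and 3.71 in the replicate 2 libraries (interquartile range 2.46 to 5.11). Of these 200, 176 (88.0%) still scored above 1 in the libraries not used to choose them, beside 11.9% of the eligible models. Chosen on replicate 2, the median was 5.72 there and 3.70 in replicate 1, and 179 of 200 (89.5%) scored above 1 beside 12.6%. Scores were smaller in the libraries not used, and 14 and 13 of the chosen models did not score above 0 there. Only 113 and 111 of the models chosen on a single replicate number were among the 200 members, whose own choice used both numbers, so these values do not test the members' dip.

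How fast the members came back was described from the stages left out of the choice. A member was called back at the first stage where its lower library came within 1 log2 unit of the lowest of its 4 libraries at the 64-cell stage and stage 7. By this measure 55 members (27.5%) were back by stage 4tt, 63 (31.5%) by stage 5 and 82 (41.0%) only by stage 7, where the rule requires it. No member counted as back at stage 4tt fell below the limit again at stage 5 (0 members). The mean rose at every step after the gastrula in 128 members.

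**Figure D1:**
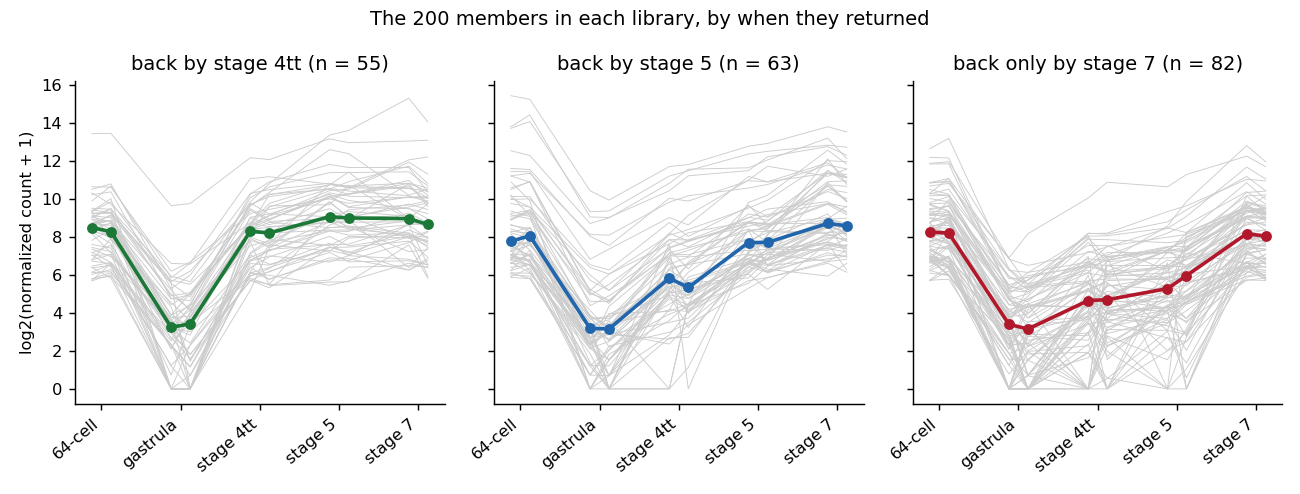
Normalized read count of each member in the 10 libraries, as log2 of the value plus 1 on the vertical axis, with the 2 libraries of each stage side by side along the horizontal axis. Grey lines are single members and coloured points the median of the group. By median, the 55 members back by stage 4tt climbed at once and the 63 back by stage 5 climbed in steps. The median of the 82 back only by stage 7 stayed low through stage 5.

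These groups had similar depths at the gastrula and differed in the climb that defines them. From the 64-cell stage to stage 7 in order, members back by stage 4tt had median normalized read counts of 341, 9.43, 314, 521 and 457. Members back by stage 5 had 219, 7.55, 50.3, 200.3 and 388 over the same stages. Members back only by stage 7 had 308, 6.80, 28.7, 54.2 and 259, so their median at stage 5 was still well below both ends. The definition of the group requires a low value only in the lower stage 5 library of each member. CTELG00000026096.1, for example, held 36.0 and 140.1 at stage 5, beside 96.1 and 96.8 at stage 7. Single-model genes gave 44, 52 and 66 members of the groups, in that order.

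Some members rose above their starting level at the middle stages, which the rule did not ask for. Stage 5 lay above both the 64-cell stage and stage 7, with no overlap of libraries, in 15 members (7.50%, beside 15.6% of the eligible models), and stage 4tt did in 3 of the 200, beside 17.6% of the eligible models. Such members were thus no larger a share of the set than of the eligible models. CTELG00000013803.1 showed the largest excess. It held 68.4 and 70.9 normalized reads at the 64-cell stage, 4.04 and 0 at the gastrula, 393 and 1194 at stage 4tt, 1699 and 2719 at stage 5, and 496 and 859 at stage 7. Both stage 5 libraries lay above every other library, while its stage 4tt libraries were far apart. CTELG00000005979.1 went from 553 and 512 at the 64-cell stage to 11.0 and 21.2 at the gastrula, 795 and 1289 at stage 4tt, 6147 and 5323 at stage 5, and 1168 and 1458 at stage 7. This was a narrow peak at stage 5, with both libraries there above all others. CTELG00000013350.1 was at 286 and 142 normalized reads at the 64-cell stage, 8.45 and 6.11 at the gastrula, 515 and 398 at stage 4tt, 713 and 474 at stage 5, and 82.4 and 171 at stage 7.

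Others stayed near the gastrula level until stage 7. CTELG00000000219.1 held 103 and 123 normalized reads at the 64-cell stage, 7.39 and 2.57 at the gastrula, 2.80 and 0.478 at stage 4tt, was listed at 0 in both stage 5 libraries, and held 143 and 157 at stage 7. CTELG00000024410.1 held 286 and 499.6 at the 64-cell stage, 5.89 and 7.40 at the gastrula, 23.0 and 5.55 at stage 4tt, 0 and 5.59 at stage 5, and 256 and 249.8 at stage 7. CTELG00000017032.1 held 98.6 and 83.3 at the 64-cell stage, 1.37 and 8.62 at the gastrula, 0 and 5.88 at stage 4tt, 1.89 and 8.05 at stage 5, and 503 and 379.5 at stage 7. For these 3 members the low spell covered 3 sampled stages, with no overlap between them and the libraries at either end. Among the eligible models, 46 (0.325%) were at least as far below both ends at stage 4tt as the last member was at the gastrula, of which 26 were members, and 32 (0.226%) were so at stage 5, of which 12 were members.

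The step from stage 4tt to stage 5 is the comparison that shares no library with the choice, and most members were higher at its end. The mean was higher at stage 5 in 175 of 200 members. Both stage 5 libraries lay above both stage 4tt libraries in 143 members (71.5%), both lay below in 8 (4.00%), and the libraries overlapped in 49. Among the eligible models the shares were 20.3% above and 23.8% below. The median log2 fold change of the members was 1.07 (interquartile range 0.55 to 1.82), beside -0.03 for the eligible models and 0.02 for all models tested. This median stayed between 0.99 and 1.21 in every alternative run, including the omission of each library in turn. Many of these runs could not move it. These were the filters, the fold-change thresholds, the replicate block and the omission of a library of another stage.

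The step grew with the depth of the dip across the eligible models as a whole. Its median was -0.09 for the 11129 models with a score of 0 or below, 0.16 for the 1774 between 0 and 1, 0.35 for the 709 between 1 and 2, and 0.63 for the 342 from 2 up to the lowest member. Non-overlapping rises made up 14.2%, 34.2%, 48.2% and 59.6% of these models. The members thus sat at the end of a graded series, with their neighbours in score close behind them. A higher score sets a larger minimum climb from the gastrula to the last sampled stage, and this step lies within that climb. The score alone therefore favours such a gradient, for members and other models alike. How much of the gradient follows from the score was not tested.

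A linear model fitted with limma to all 10 libraries and all 35526 models above a low-value filter gave the calls for this step. Its estimate of spread thus also drew on libraries used in the choice, and the climb that the rule requires favoured calls of a rise. A call needed an adjusted p under 0.05 (Benjamini-Hochberg) and a change of more than 1 log2 unit. Of the 200 members, 22 (11.0%) were called higher at stage 5, where 0.327% of all models tested were called higher. None was called lower (0 of 200, beside 0.234% of all models), while 3 had a log2 fold change below -1 at an unadjusted p under 0.05 and 85 had one above 1. The members made up 19.0% of the 116 models called higher. Called fold changes ran from 1.09 to 7.77 on the log2 scale with a median of 2.71, and 20 of the 22 came from genes with a single model. By timing, 5 were back by stage 4tt, 16 by stage 5 and 1 only by stage 7.

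**Figure D2:**
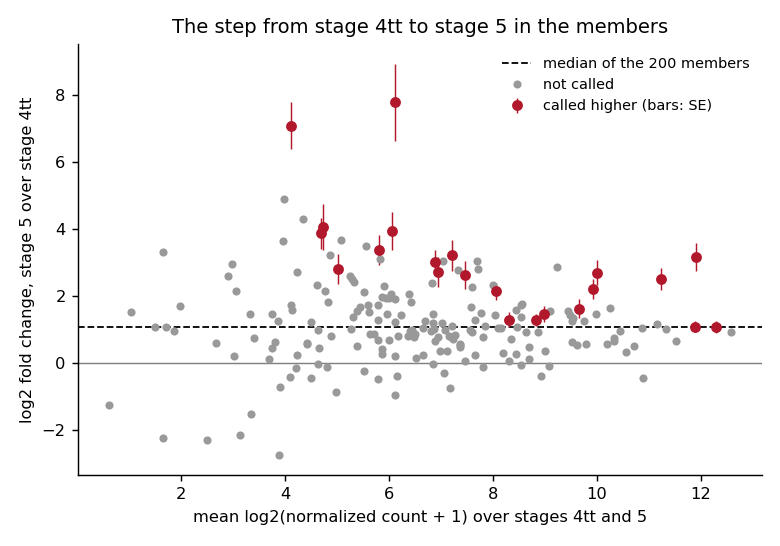
Log2 fold change of stage 5 over stage 4tt for each of the 200 members against its mean log2 normalized read count plus 1 over these 4 libraries. Red points are the 22 members called higher with their standard errors, grey points are not called, and the dashed line is the median of 1.07; most points lie above 0 at every level.

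The largest called rise was that of CTELG00000019073.1. Its normalized read counts were 109 and 207 at the 64-cell stage, 5.17 and 10.9 at the gastrula, 0 and 21.0 at stage 4tt, 898 and 1165 at stage 5, and 6034 and 3627 at stage 7. It ended well above its starting level, and the stage 4tt libraries disagreed on whether it was seen at all. Its step to stage 5 was 7.77 log2 units (SE 1.16, adjusted p = 0.0309 by limma, from 0.00102 to 0.168 over the alternatives). CTELG00000011566.1 held 212 and 284 normalized reads at the 64-cell stage, 1.62 and 0 at the gastrula, 0 and 1.19 at stage 4tt, 149 and 267 at stage 5, and 4405 and 1733 at stage 7. It was thus near 0 in 4 libraries of consecutive stages and then rose over 2 steps. Its log2 fold change from stage 4tt to stage 5 was 7.08 (SE 0.69, adjusted p = 0.00738 by limma, from 0.00434 to 0.0734). CTELG00000014347.1 held 156 and 72.6 at the 64-cell stage, 2.62 and 0 at the gastrula, 5.44 and 5.56 at stage 4tt, 109 and 107 at stage 5, and 211 and 182 at stage 7. Its rise was 4.07 log2 units (SE 0.69, adjusted p = 0.0466 by limma, from 0.0174 to 0.236). For a model near 0 at stage 4tt the fitted fold change depends on the 1 added to each value.

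Rises were also called in abundant members. CTELG00000020185.1 held 725 and 699.9 normalized reads at the 64-cell stage, 60.2 and 48.8 at the gastrula, 913 and 1784 at stage 4tt, 10469 and 12382 at stage 5, and 40282 and 16869.7 at stage 7. Its step to stage 5 was 3.16 log2 units (SE 0.41, adjusted p = 0.0229 by limma), and no 2 stages among the gastrula, stage 4tt, stage 5 and stage 7 overlapped. CTELG00000018445.1, with the largest mean over the 10 libraries of any member, fell from 44055 and 38578 at the 64-cell stage to 1375 and 977 at the gastrula. It then held 3319 and 3576 at stage 4tt, 6969.8 and 7719.8 at stage 5, and 14185 and 11725 at stage 7, a steady climb that stopped short of the start. Its step to stage 5 was 1.09 log2 units (SE 0.18, adjusted p = 0.0428 by limma). CTELG00000030007.1, the last member by score, went from 51.1 and 44.4 at stage 4tt to 589 and 349 at stage 5, a rise of 3.22 log2 units (SE 0.46, adjusted p = 0.0296 by limma).

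The number of calls depended on which libraries entered the fit. The share of all models called in each refit is not given, so these counts do not show how the members' excess changed. With only the 4 libraries of stages 4tt and 5 in the fit, 0 members were called (89 had a log2 fold change above 1 at an unadjusted p under 0.05), and without stage 5 replicate 1 the count was also 0. It was 1 without stage 5 replicate 2, 3 without stage 4tt replicate 1 and 6 without either stage 7 library.

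The replicates of the members were farther apart than those of the eligible models at every stage, most of all at the gastrula. The median distance between the libraries of a stage, in log2 units, was 0.77 for members and 0.23 for eligible models at the gastrula, 0.57 and 0.30 at stage 4tt, then 0.40 and 0.28 at stage 5. At the 64-cell stage it was 0.30 and 0.21, and at stage 7 it was 0.29 and 0.19. At the gastrula 28 members (14.0%) were more than 2 log2 units apart, beside 1.01% of the eligible models, and at stage 4tt 21 (10.5%) were, beside 1.34%. At stages 4tt and 5 the distances were close for models of the same level, a comparison not made at the gastrula. Within the interquartile range of the members' levels at stage 4tt the median distance was 0.54 for members and 0.58 for all models, and within that at stage 5 it was 0.37 and 0.41. Without the 26 members more than 2 log2 units apart at either stage, 21 of 174 were called higher.

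The remaining comparisons share libraries with the choice and are given as descriptions. At stage 4tt 135 members were called higher than at the gastrula and 0 lower, where 10.7% and 5.96% of all models were called. Both stage 4tt libraries lay above both gastrula libraries in 162 members (81.0%, beside 28.8% of the eligible models). At stage 7 59 members were called higher than at stage 5 and 2 lower, where 3.81% and 2.08% of all models were called. Without stage 7 replicate 1 the count of 59 was 6, without stage 7 replicate 2 it was 20 and without stage 5 replicate 1 it was 19.

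The members' levels at stage 7 spread to both sides of those at the 64-cell stage. The log2 difference ran from -3.50 to 5.19 with a median of 0.23, and it was within 1 log2 unit for 114 members, above 1 for 60 and below -1 for 26. Both stage 7 libraries lay above both 64-cell libraries in 89 members (44.5%, beside 40.7% of the eligible models) and below in 57 (28.5%, beside 46.9%), and they overlapped in 54. Of the members, 45 were called higher and 16 lower at stage 7, where 28.2% and 20.4% of all models were called. With libraries scaled to equal totals these counts were 74 and 7, and the median difference moved from 0.38 to 0.98 for all models tested and from 0.23 to 0.93 for the members. The median of the members lay below that of all models under both scalings. As deposited, it lay above the median of the eligible models, which was -0.13. The extremes were CTELG00000020185.1, at 5.19, and CTELG00000002027.4, which went from 1912 and 959 normalized reads at the 64-cell stage through 0 in both gastrula libraries to 106 and 14.6 at stage 4tt, then 324 and 88.1 at stage 5, and finally 113 and 126 at stage 7, at -3.50.

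Pseudo-alignment shares out a read that matches more than 1 model, so a model can fall while its gene does not. The 200 members came from 197 gene identifiers, and 162 members (81.0%) were the only model of their gene, beside 76.1% of the eligible models. The other 38 came from genes with 2 or more models. The deepest dips were concentrated there. The 8 largest scores and 12 of the 15 largest all belonged to such genes, as did 12 of the 14 members listed at 0 in both gastrula libraries. The first member from a single-model gene was CTELG00000011566.1 at rank 9, with a score of 6.34.

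The same score was computed on the sum of all models of each of these genes. For 23 of the 38 members the gene sum still scored at least as high as the lowest member, for 6 it lay between 1 and that limit, for 5 between 0 and 1, and for 4 it was not above 0. The median was 4.49 for the models and 3.42 for their gene sums. For 9 members the gene sum thus scored at most 1. A low score can come from a small fall or from a weak return. The gene sum of CTELG00000009853.2 fell from 535 and 492 at the 64-cell stage to 29.3 and 4.28 at the gastrula. It stood at only 88.0 and 52.7 at stage 7. That of CTELG00000000413.1 did not fall to the gastrula.

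**Figure D3:**
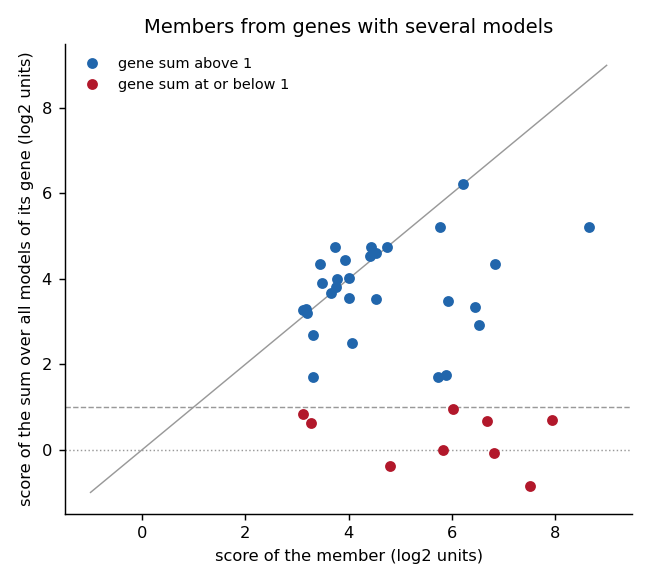
Score of each of the 38 members from genes with several models (horizontal axis, log2 units) against the score of the sum over all models of its gene (vertical axis, log2 units). The diagonal marks equal scores and the dashed line a gene score of 1; 9 red points lie at or below it, among them 3 of the 5 largest scores.

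Among the 5 largest scores the gene sums went different ways. CTELG00000014574.2, with the largest score of 8.65, held 519.8 and 707 normalized reads at the 64-cell stage, 0 in both gastrula libraries, 272 and 791 at stage 4tt, 824 and 1678 at stage 5, and 485 and 401 at stage 7. The sum of its 3 models went from 5329.7 and 4354 to 77.8 and 21.6 at the gastrula and to 2931 and 3569 at stage 7, a score of 5.22. Its sister model CTELG00000014574.1 was also a member, so the gene dipped with the model. CTELG00000002027.4, at 6.83, had a gene sum that scored 4.34 and a sister member, CTELG00000002027.3. However, its share of the gene sum went from 45.2% at the 64-cell stage to 3.84% at stage 7. A model outside the set, CTELG00000002027.1, held 12.2 and 12.7 at the 64-cell stage. At stage 7 that model held 2051 and 943 of gene sums of 3718 and 2494.

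CTELG00000000413.1 scored 7.51, with 587 and 517 normalized reads at the 64-cell stage, 0 in both gastrula libraries, 0 and 88.4 at stage 4tt, 173 and 81.2 at stage 5, and more than 50 in both stage 7 libraries. The other model of the gene, CTELG00000000413.2, was at 1328 and 1755 at the 64-cell stage, 3431 and 3388 at the gastrula and 2543 and 2059.9 at stage 7. The gene sum was therefore highest at the gastrula, with a score of -0.84. CTELG00000006479.2 scored 7.95 from 654 and 1025 normalized reads at the 64-cell stage, 0 in both gastrula libraries, 143 and 232 at stage 4tt, 186 and 259 at stage 5, and 247 and 313 at stage 7. Its gene sum fell from 1637 and 1554 to 269.9 and 286 at the gastrula and stood at 462 and 509 at stage 7, a score of 0.69. CTELG00000020356.1 scored 6.82, and its gene sum scored -0.08, with 110 and 192 normalized reads at the gastrula and 192 and 181 at stage 7, so the gene fell and did not return.

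The other model rose by more than 1 log2 unit from the 64-cell stage to the gastrula for 3 members. The largest rise, 3.24 log2 units, was that of CTELG00000012214.1, which was listed at 0 in both 64-cell libraries and held 4.53 and 15.2 normalized reads at the gastrula and 56.0 and 54.8 at stage 7. The member of that gene, CTELG00000012214.2, held 51.9 and 87.5 at the 64-cell stage, 0 in both gastrula libraries and 81.4 and 60.2 at stage 7, and the score of 5.73 for the model was 1.71 for the gene. For CTELG00000024122.5, 1 of 5 models, the model CTELG00000024122.3 rose by 2.28 log2 units from 169 and 157 to 571 and 1103, and the score went from 3.27 to 0.62 in the gene sum. The third was CTELG00000000413.2, described above, with a rise of 1.16.

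In 3 genes 2 models were members. Besides the pairs of CTELG00000014574 and CTELG00000002027, this was CTELG00000018571, whose models CTELG00000018571.1 and CTELG00000018571.2 scored 4.44 and 3.74. The former held 126 and 77.4 normalized reads at the 64-cell stage and was at 81.3 and 84.5 by stage 7, while the latter held 57.4 and 54.8 and then 191 and 186. The pair thus came back to different levels relative to their start, the former only by stage 7 and the latter by stage 5.

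Members with neighbouring identifier numbers were looked for after the values were seen. There were 8 such pairs over 15 members, and both members returned at the same stage in 6 of them. Pairs that share CTELG00000025993.1 are among these 6 and are not separate observations. Agreement among other pairs of members was not computed, so the count is a description only. None of the sources says whether the numbers follow the order of genes in the genome, and how far near-identical genes share reads was not tested. The longest run held CTELG00000025990.1, CTELG00000025992.1, CTELG00000025993.1 and CTELG00000025994.1, with CTELG00000025991.1 and CTELG00000025996.1 just outside the set at scores of 3.02 and 3.04.

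CTELG00000025990.1 held 11039 and 11156 normalized reads at the 64-cell stage, 795 and 862 at the gastrula, 4588 and 4288 at stage 4tt, 9149 and 7933 at stage 5, and 8423 and 8690.5 at stage 7. It was among the 3 members with the largest means over the 10 libraries and the only member of the run back by stage 4tt. CTELG00000025992.1 held 13359 and 17176 at the 64-cell stage, 639 and 658 at the gastrula, 2346 and 2858 at stage 4tt, 5254 and 5787 at stage 5, and 7249 and 6721 at stage 7, and its step to stage 5 of 1.09 log2 units was called (SE 0.16, adjusted p = 0.0305 by limma). CTELG00000025993.1 ran about an order of magnitude lower, from 1429 and 1937 to 35.1 and 64.9 at the gastrula and 860.3 and 648 at stage 7. These 6 models were picked for scores above or just below the limit, which fixes their low gastrula level, and CTELG00000025995.1, which lies between them in number, was not eligible, with 26.2 and 86.7 normalized reads at the 64-cell stage but only 9.90 and 3.46 at stage 7. All 6 were higher at stage 5 than at stage 4tt, and all 6 ended below their 64-cell libraries at stage 7.

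**Figure D4:**
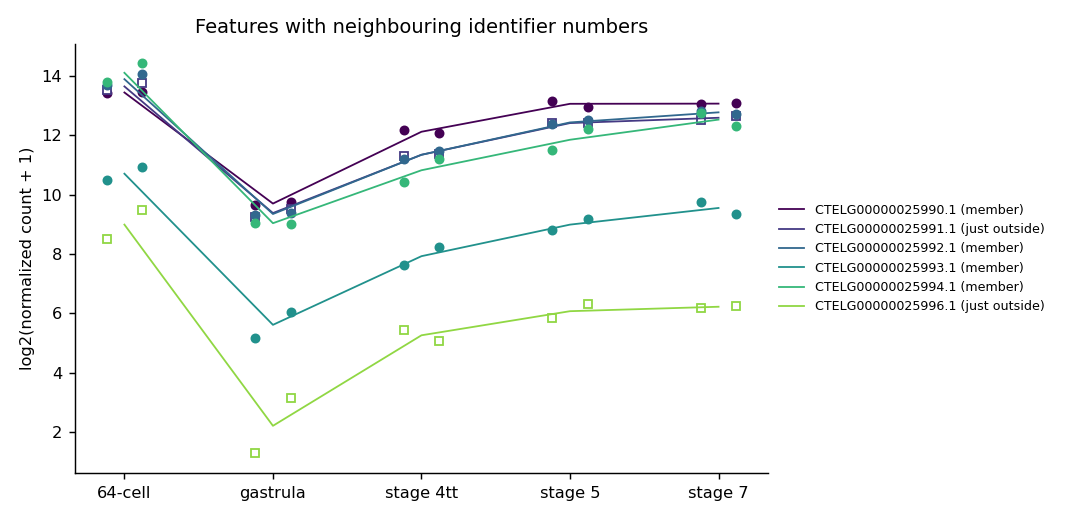
Normalized read count of 6 models with neighbouring identifier numbers, as log2 of the value plus 1, over the 5 stages; points are single libraries and lines join the stage means. Filled circles are the 4 members and open squares the 2 models just outside the set; all 6 climbed from stage 4tt to stage 5, and their low gastrula level follows from how they were picked.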

How the data were processed

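Bulk RNA-seq libraries of 5 stages of *C. teleta*, 2 per stage, were used. The authors trimmed reads with trimmomatic, pseudo-aligned them with kallisto (v0.46.2) to filtered models from their re-annotation of the soft-masked Ensembl Metazoa assembly, and normalized read counts over the species' developmental series with DESeq2 (v1.30.1, versions from the submitters' processing notes). That series extended to the competent larva, and which libraries of it entered the deposited values is not stated. Each deposited signal is a normalized read count per transcript model, not a raw count and not corrected for transcript length, so no counting interval was computed. All 10 columns were matched to a sample by name (0 left unmatched).

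The 35526 models with a value above 2 in 2 or more libraries were tested, among them all 200 members. Values were transformed as log2(value + 1) and fitted with 1 coefficient per stage in limma (v3.58.1, R v4.3.3), with moderated variances and a mean-variance trend. Benjamini-Hochberg adjustment ran over all models of a comparison. Fold changes on this scale understate those of low models. A gene is the identifier before its last dot. Other values came from numpy (v2.4.6) and pandas (v2.3.3), and plots from matplotlib (v3.10.9), in Python (v3.11.15). The fit was tested on simulated data.

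Named members were the 5 largest scores, the 3 largest means, the members and models on each side of the limit, the 3 highest and 3 lowest at stages 4tt and 5 relative to the ends, the 3 largest called rises, both extremes of stage 7 against the 64-cell stage, the 3 members whose gene has the other model with the largest rise, and genes with 2 members. Members with neighbouring identifier numbers were named after their values were seen. The members, the rule and the comparisons were chosen with earlier results of these data known. Alternatives were other pseudocounts, filters, scalings, thresholds and fits, gene sums and the omission of each library.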

Additional observations from a re-analysis of the deposited data

How the results depend on the processing

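The count of 22 members called higher at stage 5 than at stage 4tt was the least stable result. The median log2 fold change of the members stayed between 0.99 and 1.21. The filters, the fold-change thresholds, the replicate block and leaving out a library of another stage cannot move it. Shares of all models called under the alternatives are not given, so the counts below do not show how the members' excess changed. Changing 1 setting with all libraries kept gave 12 called members with a pseudocount of 0.1, 8 with no filter on low values, 14 with array weights and 0 with only the compared stages in the fit. The count was 24 with a filter above 5 and 31 with a pseudocount of 5. On gene sums 32 were called higher and 1 lower. Leaving out 1 library gave 0 to 23 called higher. Of the 22 members, 20 were also called with the replicate number as a block, 18 with median-ratio scaling and 16 with a log2 fold change above 2. For stage 7 against stage 5, leaving out 1 library gave 6 to 66 members called higher. For stage 7 against the 64-cell stage it gave 33 to 48 higher and 12 to 21 lower. Scaling to equal totals, an alternative chosen after seeing the data, gave 74 higher and 7 lower. The number called lower was 25 with only the compared stages in the fit and 7 with a log2 fold change above 2. Scaling to equal totals also moved the median of all models from -0.02 to 0.11 for stage 4tt against the gastrula and from 0.05 to 0.19 for stage 7 against stage 5. The cause of these shifts was not tested. Within 2 log2 units of the lowest end library, 101 members were back by stage 4tt and 43 only by stage 7. A reversal of direction could appear only in fold changes, since counts of members have none. It appeared in none of the 23 recomputed medians of the step from stage 4tt to stage 5 (0 reversed). Among the 63 recomputed values of the 3 largest called rises it was also absent (0 reversed). Many of these medians and values could not move under the setting changed. Other choices of score, minimum or scaling kept 135 to 195 of the 200 members, and leaving out 1 library kept 136 to 182.

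Libraries of different stages share replicate numbers, but no label ties them to a common brood or batch. Deviations of same-numbered libraries correlated at 0.22 between stages 4tt and 5, and between -0.01 and 0.11 for other pairs of stages, across features, which are not independent. With the replicate number as a block, 26 members were called higher at stage 5 and 0 lower. No other count moved by more than 1.5 times under the block.

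With 2 libraries per stage and normalized values only, single members near 0 carry little weight, and the values alone give no counting error.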
